A study of Homo sapiens with 10 samples.

Results

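The genes described here are the protein-coding genes on chromosome 10 that start at 60 Mb or later (GENCODE release 44, GRCh38) and that averaged at least 1 CPM (counts per 1000000 counts of a library) over 10 RNA-seq libraries. They number 273 of the 11262 protein-coding genes of the series at that level. The table holds 482 protein-coding genes in this stretch of the long arm, of which 209 fell under the limit, 100 of them without a count in any library. The stretch was chosen by measured values of these same libraries: its genes had been seen to be higher in WT_1, WT_2 and Het_8 than in the other 7 libraries. That contrast is therefore given as a description with no test.

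All libraries came from clones of U2932, a human cell line that was established from a diffuse large B cell lymphoma, a tumour of mature B lymphocytes. By their labels 5 of the clones are CREBBP+/- and the other 5 are CREBBP+/+. The CREBBP protein acetylates histones and serves as a coactivator of transcription. All clones shared the same medium, RPMI with heat-inactivated serum, and no treatment is named. The sources used here give neither how CREBBP was altered nor how the clones were derived. The table names its CREBBP+/- columns Het_6 to Het_10, whereas the labelled clones are Het_1 to Het_5, so these libraries stand for their genotype without a match to a single labelled clone. The set WT_1, WT_2 and Het_8 holds clones of both genotypes and was known from a grouping of the libraries by their whole expression profile. The other 7 libraries are WT_3, WT_4, WT_5, Het_6, Het_7, Het_9 and Het_10.

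Genes on one chromosome segment share no function as a group, but they share their DNA dosage. In lymphoma cells whole segments are often gained or lost as one piece, and the mRNA of many, though not all, genes follows the number of copies. The long arm of chromosome 10 carries several genes of B cell biology: BLNK and PIK3AP1, adaptors of the B cell receptor, NFKB2 and CHUK of the non-canonical NF-kappaB pathway, and FAS, a death receptor. DNA copy number was not analysed here, and every value below is a level of RNA.

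Library totals ranged from 10615977 (Het_9) to 23020694 (Het_6) counts. CREBBP itself (ENSG00000005339, chromosome 16, 3725054 to 3880713) had 71.8, 77.8, 56.2, 61.0 and 80.4 CPM in Het_6 to Het_10, against 118, 103, 103, 115 and 137 CPM in WT_1 to WT_5, so that the genotypes did not overlap. Its log2 fold change was -0.73 (SE 0.12, adjusted p = 0.395 with edgeR and 0.000105 with DESeq2). All 6 B cell markers examined averaged above 1 CPM, and of the markers of other cell types only TRAC and EPCAM did, with CD3D, CD2, NKG7, HBB and COL1A2 without a count in any library. The summed B cell markers, MS4A1, CD79A and PAX5 among them, were lower in the same 3 libraries that were high for chromosome 10, at 1943 to 2285 CPM in WT_1, WT_2 and Het_8 and 3025 to 3480 CPM in the other 7. The summed T cell list lay at 7.63 to 13.8 CPM in the 3 and 12.5 to 27.7 CPM in the 7, and the epithelial list at 1.63 to 13.5 CPM in the 3 and 19.9 to 26.8 CPM in the 7. The part of these differences in the shift described next was not tested.

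The members were higher in WT_1, WT_2 and Het_8 by a median of 0.50 on the log2 CPM scale, a factor of 1.41. This shift is the mean log2 CPM over the 3 libraries minus the mean over the other 7. The interquartile range of the members was 0.24 to 0.75, and the whole range ran from -4.99 to 3.47. The shift was above 0 in 242 of 273 members (88.6%) and below 0 in 31. It was above 0 in 48.6% of the 11262 genes of the series. In 161 members (59.0%) all 3 libraries lay above all other 7, where 16.2% of the 11262 genes of the series did. In 7 members (2.56%) all 3 lay below the other 7, where 17.5% of all genes did. The libraries overlapped in 105 members. Since the stretch was chosen on this contrast, nothing is read from these shares. In RNA from a whole culture, a higher level in every cell and a larger share of cells at the higher level cannot be told apart.

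Each of the 3 libraries carried the shift by itself and to nearly the same extent. The median deviation of the members from each gene's own median over the 10 libraries was 0.40 in WT_1, 0.41 in WT_2 and 0.40 in Het_8 (SD 0.0067, n = 3). In the other 7 libraries it was -0.15 at the lowest, -0.06 at the median and 0.0008 at the highest (SD 0.063, n = 7). The sets did not overlap, but the stretch was chosen on this contrast, so nothing is read from the gap between them. Het_8, the CREBBP+/- clone of the set, differed from the mean of WT_1 and WT_2 by a median of 0.0064 over the members. Among the other 7, the 4 CREBBP+/- libraries differed from the 3 CREBBP+/+ libraries by 0.0063. The lowest medians of the segment were those of Het_9 (-0.14) and Het_10 (-0.15). Set against WT_3, WT_4, WT_5, Het_6 and Het_7, these libraries had a median difference of -0.11 over the members and of -0.02 over all genes. The shift came to 0.63 when WT_1, WT_2 and Het_8 were set against Het_9 and Het_10 alone, and to 0.47 when set against the remaining 5.

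The shift was near even along the segment at a scale of 10 Mb. In consecutive 10 Mb windows from 60 Mb to the end of the chromosome, the median shift was 0.49, 0.45, 0.40, 0.49, 0.48, 0.50, 0.50 and 0.58. These windows hold 25, 49, 22, 50, 54, 35, 23 and 15 members in the same order, so that the last one is thin. The medians of the 7 windows with at least 20 members spanned 0.10. In folds the window medians lay between 1.32 and 1.49. The first 136 members by position had a median shift of 0.48 and the last 137 had 0.51. Single members had an interquartile width of 0.51, and 132 of them (48.4%) lay within 0.25 of the segment's median.

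**Figure D1:**
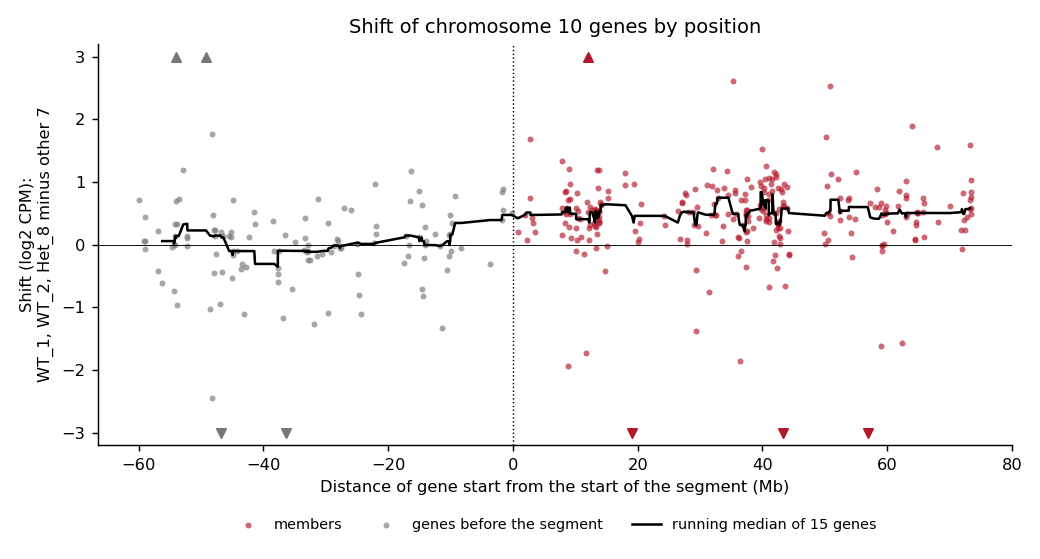
Each point is a protein-coding gene of chromosome 10 with at least 1 CPM, at its distance in Mb from the 60 Mb start of the segment (x) and its shift in log2 CPM, WT_1, WT_2 and Het_8 minus the other 7 libraries (y); the line is the running median of 15 genes. The 273 members (red) have a median of 0.50, with the running median above 0 throughout the segment and uneven in places, and the 127 genes before it (grey) have a median of 0.02; 8 genes beyond 3 in size, 4 of them members, are drawn as triangles at the limit.

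In each of the 3 libraries the window medians were above 0 in all 8 windows, but they were less even than the shift. Over the 8 windows the median deviation from each gene's own median lay between 0.27 and 0.66 in WT_1, between 0.28 and 0.49 in WT_2 and between 0.22 and 0.45 in Het_8. The other 7 libraries lay between -0.27 and 0.02 in every window, so that none of them reached the lowest window of the 3. The window from 80 to 90 Mb was the lowest in each of the 3 libraries. The libraries of the set came apart mainly in the thin last window, at 0.66 in WT_1, 0.49 in WT_2 and 0.37 in Het_8.

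**Figure D2:**
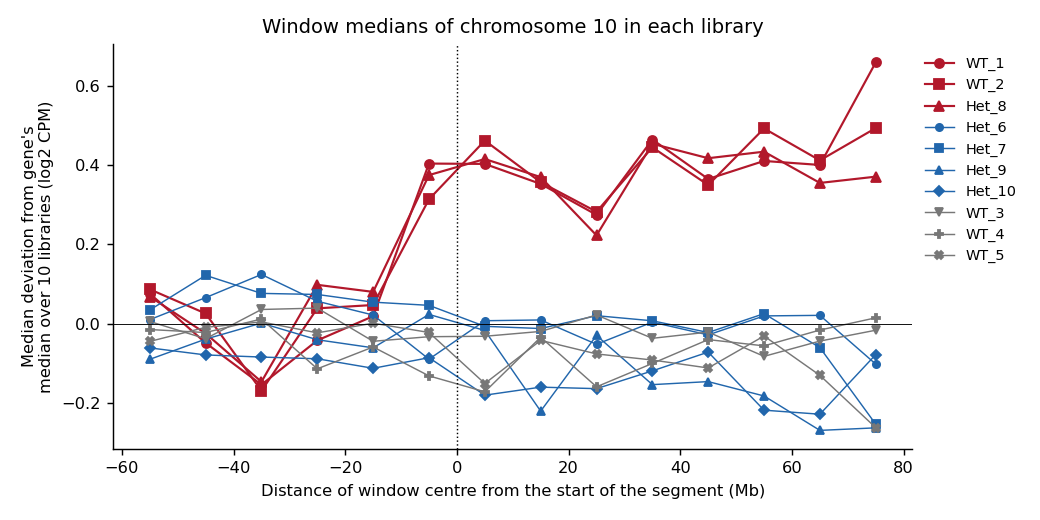
Median deviation in log2 CPM (y) of the genes of each 10 Mb window of chromosome 10 in each library, by the distance of the window's centre from the start of the segment (x); red lines are WT_1, WT_2 and Het_8, blue the other CREBBP+/- and grey the other CREBBP+/+ libraries. The red lines run between 0.22 and 0.66 in every window of the segment and the others between -0.27 and 0.02; the windows centred at -25, -5 and 75 Mb hold under 20 genes.

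Finer steps showed local departures. The running median over 15 neighbouring members was above 0 at all 259 positions. Its lowest value, 0.21, covered CCNJ to ZDHHC16 (starts from 96.0 to 97.4 Mb), where 6 of the 15 members had all 3 libraries above the others. This stretch holds BLNK and PIK3AP1. The highest value, 0.84, lay a short way further on, at ZFYVE27 to SEC31B (97.7 to 100 Mb), where 14 of 15 members did. That stretch includes CHUK, SCD and DNMBP. Over the whole segment 59.0% of members had all 3 libraries above, and over all genes 16.2% did. Both extremes were picked out of all positions and carry no test.

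Before 60 Mb, chromosome 10 did not share the shift as a whole. Its 127 genes had a median of 0.02, with 27 (21.3%) of them all above and 22 all below. The windows from 0 to 50 Mb had medians of 0.10, 0.01, -0.12, 0.02 (thin, 18 genes) and 0.05. The window from 50 to 60 Mb, also thin with 10 genes, stood at 0.45 and was mixed. In its first part SGMS1 (50.3 Mb) and ASAH2B (50.7 Mb) had 0.34 and 0.78 with all 3 libraries above, while CSTF2T (51.7 Mb) had -0.06 and ZWINT (56.4 Mb), a kinetochore protein, had -0.30 with all 3 below. From 58.2 Mb on IPMK, CISD1, UBE2D1 and TFAM had 0.39, 0.85, 0.55 and 0.88, each with all 3 above, and CCDC6 (59.8 Mb) had 0.51 with overlap. TFAM, the packaging protein of mitochondrial DNA, had 116, 127 and 113 CPM in WT_1, WT_2 and Het_8, against 51.9 at the lowest, 64.9 at the median and 76.8 CPM at the highest in the other 7. These neighbours, named after their values were seen, show that 60 Mb is the limit set by the rule and not a measured edge of the shift. Starting at 58 Mb gave 278 genes and a median of 0.50.

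Just inside the 60 Mb limit the first members varied. CDK1, the kinase that drives entry into mitosis (ENSG00000170312, 60778331 to 60794852), had 117, 118 and 95.5 CPM in WT_1, WT_2 and Het_8, against 84.2, 99.1 and 105 CPM as the lowest, median and highest of the other 7. Its shift of 0.20 came with overlap, since Het_8 lay within the range of the 7. ARID5B, a chromatin-binding factor, had a shift of 0.47 and RTKN2 of 0.07, both also with overlap. Of the genes nearest the level limit, ENTPD1 and CFAP70 were just inside it (means of 1.01 and 1.16 CPM, shifts of 0.49 and -0.05). CDHR1, ZCCHC24 and FUOM were just outside it (0.949, 0.913 and 0.910 CPM, shifts of 4.42, 0.0026 and 2.44). A gene near the limit can pass through the set in which it is high. The mean reached 1 CPM within WT_1, WT_2 and Het_8 in 265 members, within the other 7 in 271 and within both in 263.

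The end of the chromosome was high as well. PAOX, a polyamine oxidase (ENSG00000148832, 133379261 to 133391694), had 2.52, 1.31 and 1.78 CPM in WT_1, WT_2 and Het_8, against 0.921, 1.18 and 1.55 CPM as the lowest, median and highest of the other 7. MTG1, a GTPase of mitochondrial ribosome assembly (ENSG00000148824, 133394094 to 133422520), had 36.4, 25.2 and 24.7 CPM in the 3, against 13.3, 16.01 and 18.2 CPM in the 7. WT_1 was the highest library in both, and of the pair only PAOX overlapped between the sets. The gene listed only as ENSG00000254536 (133380017 to 133420271) had 30.2, 21.0 and 18.4 CPM in the 3, against 11.2, 13.9 and 15.3 CPM in the 7. It overlaps PAOX and MTG1, and with no statement on the use of strand their reads may be shared.

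Elsewhere in the genome 202 windows of 10 Mb held at least 20 genes, with median shifts from -0.65 to 0.67. Of these 7 reached 0.40, the lowest value of the segment's windows, and they lie on chromosomes 2, 14 and 19. A long run of windows as far from 0 was not seen on chromosome 10 alone, and evenness was not compared. With windows under 20 genes counted too, 7 windows in a row from 100 to 170 Mb on chromosome 2 reached 0.40 (0.41 to 0.79), beside the 8 of the segment, and 10 in a row on chromosome 8 lay as far below 0. Among windows of at least 20 genes alone, the segment gave 7 in a row, chromosome 2 at most 2 and chromosome 8 at most 3 below 0. The genes of chromosome 8 from 40 Mb on had a median of -0.44 over 274 genes, 133 of them (48.5%) with all 3 libraries below. Those of chromosome 13 had -0.38 over 193 genes, with 86 (44.6%) all below. The median deviation on chromosome 13 was -0.24, -0.25 and -0.19 in WT_1, WT_2 and Het_8. It was 0.43 in Het_9 and 0.41 in Het_10, and between -0.05 and 0.04 in WT_3, WT_4, WT_5, Het_6 and Het_7. The 10862 genes off chromosome 10, those of chromosomes 8 and 13 among them, had a median of -0.03.

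**Figure D3:**
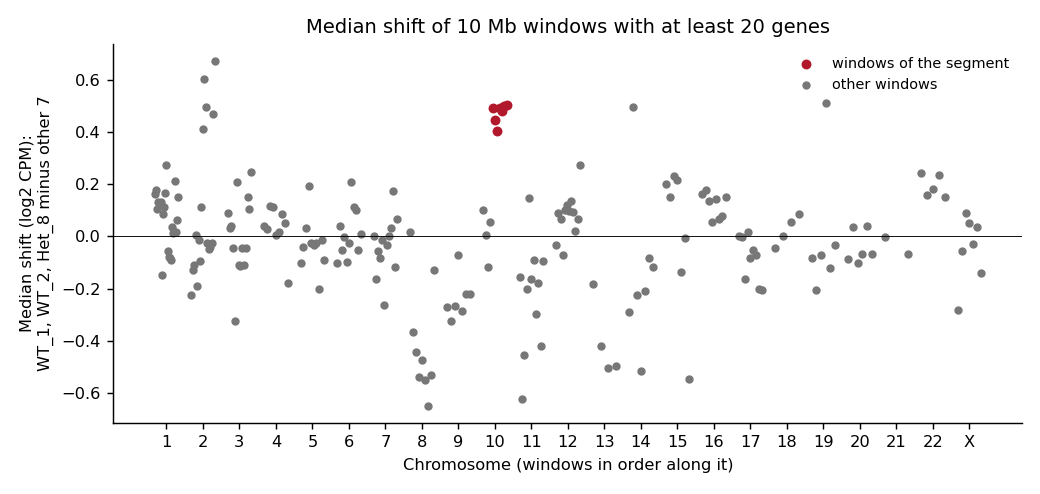
Each point is a 10 Mb window with at least 20 protein-coding genes of at least 1 CPM, placed in order along its chromosome (x) by its median shift in log2 CPM, WT_1, WT_2 and Het_8 minus the other 7 libraries (y). The 7 windows of the segment (red) sit together between 0.40 and 0.50; the other 202 windows (grey) run from -0.65 to 0.67.

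The members with the most counts in their window included several at more than the common size of the shift. DDX21, a nucleolar RNA helicase (ENSG00000165732, 68956135 to 68985068), had 613, 623 and 502 CPM in WT_1, WT_2 and Het_8, against 192, 270 and 286 CPM as the lowest, median and highest of the other 7 (shift 1.21). NOLC1, a nucleolar phosphoprotein (ENSG00000166197, 102152176 to 102163871), had 427, 416 and 439 CPM in the 3, against 180, 191 and 214 CPM in the 7 (shift 1.13). Both nucleolar genes lay above the segment's median, with no overlap between the sets. EIF3A, the scaffold subunit of the translation initiation factor eIF3, had 453, 423 and 450 CPM in the 3, against 260, 279 and 311 CPM in the 7 (shift 0.66). PPA1, an inorganic pyrophosphatase, had a shift of 0.82 and RPS24, a protein of the small ribosomal subunit, of 1.14, both without overlap. RPS24 has many processed pseudogenes, so its reads may be split among copies. GHITM, a protein of the inner mitochondrial membrane, had 0.46, GLRX3, a glutaredoxin, 0.61 and TUBGCP2, of the gamma-tubulin complex, 0.71, again with all 3 libraries above. HNRNPH3, an RNA-binding protein, had 0.34, MKI67, the Ki-67 antigen of cycling cells, 0.36 and ANXA11, an annexin, 0.08, with overlap in each.

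The cell division genes were close to the segment in their median, but single genes scattered widely. All 13 listed genes were members, all had a shift above 0, 8 had all 3 libraries above, and their median was 0.48. Beside this count and those of the lists below stand 59.0% of all members with all 3 above, and 16.2% of all genes. KIF11, the motor that separates spindle poles (ENSG00000138160, 92574105 to 92655395), had 136, 137 and 133 CPM in WT_1, WT_2 and Het_8, against 90.6, 99.1 and 104 CPM in the other 7. SMC3, a cohesin subunit (ENSG00000108055, 110567684 to 110606048), had 128, 148 and 148 CPM in the 3, against 89.9, 99.0 and 110 CPM in the 7. BUB3, of the spindle checkpoint, had 209, 223 and 202 CPM in the 3, against 135, 151 and 169 CPM in the 7. Their shifts of 0.47, 0.50 and 0.48 lay close to one another and to the segment's median, without overlap between the sets. The list ran from CEP55, a cytokinesis protein, at 0.06 to MMS19, which brings iron-sulfur clusters to DNA enzymes, at 1.04.

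The mitochondrial list held 13 members of 16 names, 12 of them with all 3 libraries above, and a median shift of 0.61. TWNK, the helicase of mitochondrial DNA (ENSG00000107815, 100987367 to 100994403), had 45.8, 49.0 and 44.6 CPM in WT_1, WT_2 and Het_8, against 19.9, 21.9 and 24.8 CPM in the other 7 (shift 1.05). ECHS1, an enzyme of fatty acid oxidation, had 48.2, 48.03 and 40.9 CPM in the 3, against 19.4, 23.04 and 24.1 CPM in the 7 (shift 1.02). PPIF, cyclophilin D of the permeability pore, had 169, 180 and 160 CPM in the 3, against 73.0, 88.3 and 105 CPM in the 7 (shift 0.97). In all of them the sets were well apart. VDAC2, GLUD1, SLC25A28, ATP5MK and COX15 had shifts of 0.74, 0.66, 0.63, 0.61 and 0.57, and MRPL43, GOT1 and NDUFB8 of 0.42, 0.42 and 0.37. PRDX3, a mitochondrial peroxidase, was the exception at -0.0089, with 165, 181 and 147 CPM in the 3, against 147, 161 and 200 CPM in the 7. GOT1 is the cytosolic aminotransferase, GLUD1 has near-identical copies elsewhere, and TWNK and MRPL43 overlap each other.

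All 6 members of the lipid and lysosome list had all 3 libraries above the other 7 (8 names listed, median shift 0.78, range 0.40 to 1.04). Over the whole segment 59.0% of members did, and over all genes 16.2%. SCD, the desaturase that makes monounsaturated fatty acids (ENSG00000099194, 100347233 to 100364826), had 329, 263 and 271 CPM in WT_1, WT_2 and Het_8, against 93.7, 146 and 198 CPM in the other 7. LIPA, the lysosomal acid lipase, had 26.8, 25.8 and 26.3 CPM in the 3, against 11.3, 13.9 and 20.8 CPM in the 7. GPAM, which starts glycerolipid synthesis, had 21.4, 22.8 and 25.2 CPM in the 3, against 9.20, 11.5 and 12.2 CPM in the 7. In each of them the lowest of the 3 lay above the highest of the 7. PSAP, the saposin precursor, had a shift of 0.68, ACSL5, an acyl-CoA synthetase, of 0.54 and SGPL1, the sphingosine phosphate lyase, of 0.40. The lists were written with earlier results of these libraries known, so their counts are no independent evidence.

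The B cell receptor and PI3K list, which also counts ENTPD1 from outside these pathways, had smaller shifts. ENTPD1 itself had 0.49 at a mean of 1.01 CPM. Of 7 names 6 were members, of which 5 were above 0 and only INPP5F had all 3 libraries above, with a median of 0.17. BLNK (ENSG00000095585, 96189171 to 96271587) had 123, 127 and 91.7 CPM in WT_1, WT_2 and Het_8, against 86.1, 108 and 120 CPM in the other 7. PIK3AP1 (ENSG00000155629, 96593315 to 96720514) had 161, 172 and 145 CPM in the 3, against 146, 181 and 197 CPM in the 7. These adaptors of the same pathway had shifts of 0.11 and -0.10, both with overlap, and single libraries moved them. That of BLNK was 0.26 without Het_8 and 0.03 without WT_2, and that of PIK3AP1 was -0.03 without Het_8 and -0.16 without WT_2. Whether the list differs from the rest of the segment was not tested.

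The NF-kappaB list, which also counts ERLIN1 from outside the core pathway, divided, with 3 of 4 all above and a median shift of 0.69. CHUK, the kinase IKK-alpha (ENSG00000213341, 100188300 to 100229596), had 49.5, 50.3 and 48.2 CPM in WT_1, WT_2 and Het_8, against 21.3, 27.5 and 31.3 CPM in the other 7 (shift 0.84). BTRC, the F-box protein that targets the inhibitors of NF-kappaB, had 0.96 and ERLIN1, a membrane protein of the endoplasmic reticulum, 0.53, both with all 3 above. NFKB2, the p100 precursor that CHUK phosphorylates (ENSG00000077150, 102394110 to 102402524), had 61.9, 44.6 and 52.0 CPM in the 3, against 61.8, 66.2 and 79.2 CPM in the 7 (shift -0.38). Only WT_1 reached into the range of the 7 there.

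In the apoptosis and stress list all 5 members were above 0, of which 2 had all 3 libraries above, PDCD4 among them, with a median shift of 0.49. PDCD4, an inhibitor of translation initiation (ENSG00000150593, 110871795 to 110900006), had 251, 290 and 245 CPM in WT_1, WT_2 and Het_8, against 42.0, 43.7 and 51.3 CPM in the other 7. That is a shift of 2.53, or 5.76-fold, far above that of SMC3, which lies nearby. FAS, BAG3 and DDIT4 had shifts of 0.31, 0.49 and 0.08 with overlap. Of the 4 interferon-induced genes only IFIT2 and IFIT5 were members, at -0.41 with overlap and at -1.37 with all 3 below.

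The transcription and chromatin list was mixed, with 14 members of 15 names, 8 of them all above, 2 all below and a median shift of 0.64. MXI1, a MAX partner that opposes MYC, had 14.3, 15.6 and 20.1 CPM in WT_1, WT_2 and Het_8, against 3.64, 4.31 and 8.29 CPM in the other 7 (shift 1.71). BTAF1, a partner of the TATA-binding protein, had 151, 151 and 167 CPM in the 3, against 77.1, 82.9 and 91.5 CPM in the 7 (shift 0.93). HHEX, a homeobox factor of blood progenitors, had 24.2, 20.1 and 20.3 CPM in the 3, against 7.88, 9.89 and 23.3 CPM in the 7 (shift 0.87). MXI1 and BTAF1 were apart between the sets, and HHEX overlapped. KAT6B, like CREBBP a histone acetyltransferase (ENSG00000156650, 74824927 to 75032624), had 48.1, 45.0 and 49.0 CPM in the 3, against 56.5, 63.7 and 75.2 CPM in the 7 (shift -0.42). ZMIZ1, a coactivator related to the PIAS proteins (ENSG00000108175, 79068966 to 79316519), had 3.32, 14.97 and 3.45 CPM in the 3, against 38.9, 56.9 and 91.5 CPM in the 7. At -3.44 it had the lowest shift among members of at least 10 CPM.

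Among members with at least 10 CPM, the 6 highest shifts were those of PDLIM1 (2.61), PDCD4 (2.53), CHST15 (1.89), EGR2 (1.69), ADAM8 (1.59) and DNMBP (1.53). PDLIM1, an actin-associated adaptor (ENSG00000107438, 95237572 to 95291012), had 167, 169 and 132 CPM in WT_1, WT_2 and Het_8, against 20.1, 26.1 and 30.3 CPM in the other 7. DNMBP, an activator of CDC42 (ENSG00000107554, 99875577 to 100009947), had 57.0, 51.6 and 57.9 CPM in the 3, against 16.4, 19.7 and 22.1 CPM in the 7. EGR2, an early-response transcription factor (ENSG00000122877, 62811996 to 62819167), had 48.7, 65.6 and 33.4 CPM in the 3, against 8.58, 16.7 and 29.2 CPM in the 7. PDLIM1 and DNMBP were far apart between the sets, while Het_8 lay close above the highest of the 7 for EGR2. CHST15, a sulfotransferase of chondroitin sulfate, and ADAM8, a membrane metalloprotease, also had all 3 above.

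At the other end, ZMIZ1 and KAT6B were followed by NFKB2, FBXW4 (-0.27), ABLIM1 (-0.19) and ZNF518A (-0.18). FBXW4, an F-box protein, had 11.8, 11.6 and 12.3 CPM in WT_1, WT_2 and Het_8, against 11.2, 15.3 and 16.4 CPM in the other 7. ABLIM1, an actin-binding protein, had 204, 146 and 108 CPM in the 3, against 87.7, 163 and 293 CPM in the 7. ABLIM1 thus varied widely within the 7, and its shift was 0.03 without Het_8, -0.43 without WT_1 and -0.54 without Het_9 and Het_10. That of ZNF518A was -0.32 without Het_10 and -0.41 without Het_9 and Het_10, so the order of these members depends on the libraries kept. The 7 members with all 3 libraries below were STOX1, KAT6B, ZMIZ1, IFIT5, HECTD2, TLL2 and INA, of which KAT6B and ZMIZ1 averaged over 10 CPM. INA, a neuronal intermediate filament, had 0.123, 0.0545 and 0.701 CPM in the 3, against 3.64, 5.29 and 6.11 CPM in the 7. SHTN1, an axon guidance protein, had the lowest shift of all (-4.99), with 0, 0 and 0.216 CPM in the 3, against 0.0523, 8.92 and 11.3 CPM in the 7, and overlapped through WT_5. SPOCK2, a proteoglycan, had the highest at 3.47, with 2.09, 2.61 and 9.17 CPM in the 3, against 0.0551, 0.317 and 0.464 CPM in the 7. The extremes over all members were thus genes of a few CPM or less in one set, where few counts set the log2 value. STOX1, HECTD2, TLL2, INA, SHTN1 and SPOCK2 were named after their values were seen.

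**Figure D4:**
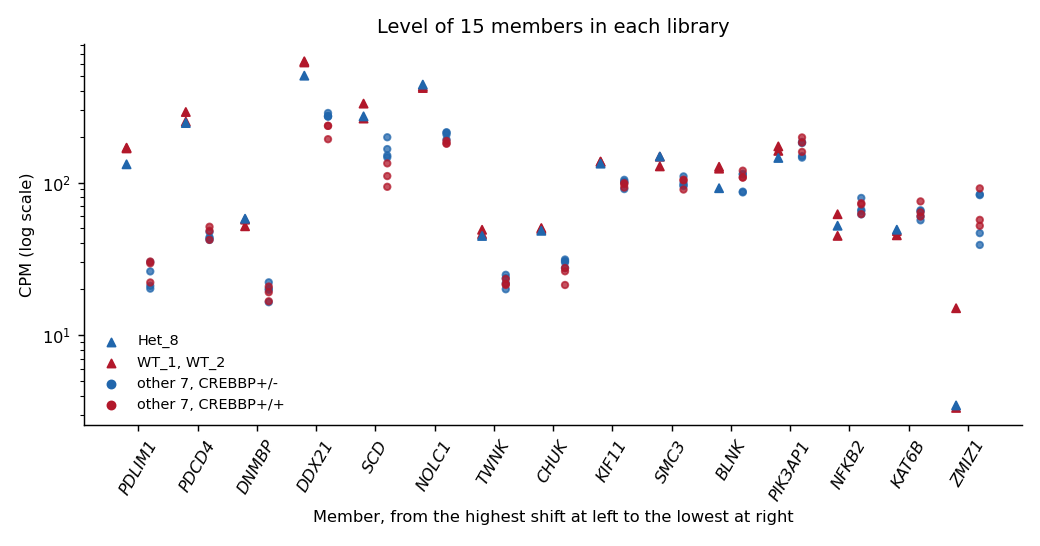
CPM on a log scale (y) of 15 members in each library, from high to low shift (x) with some exceptions. SCD stands before NOLC1 and TWNK, and KIF11 before SMC3, although their shifts are lower. Triangles are WT_1, WT_2 (red) and Het_8 (blue), and circles the other 7 libraries, CREBBP+/- in blue and CREBBP+/+ in red. From PDLIM1 to SMC3 all triangles lie above all circles, in BLNK, PIK3AP1 and NFKB2 they overlap, and in KAT6B and ZMIZ1 they lie below.

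The median shift moved little with most features examined. Level entered the choice of members through the limit of 1 CPM. By tertile of mean log2 CPM it was 0.44, 0.53 and 0.53 from the lowest tertile to the highest, while the interquartile width narrowed, at 0.75, 0.43 and 0.38. The share with all 3 libraries above was 41.8%, 62.6% and 72.5% in the same order. By tertile of gene span the median was 0.46, 0.58 and 0.48, and by tertile of summed exon length 0.52, 0.50 and 0.48. Members on the plus strand (146) had 0.48 and those on the minus strand (127) had 0.54. The 85 members whose span overlaps another protein-coding gene had 0.49, and the 188 without such a gene had 0.50.

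Promoter sequence was taken from RefSeq (GRCh38.p14, 250 bases before to 50 after the start), which held an entry for 227 members (83.2%). By tertile of the ratio of observed to expected CpG the median shift was 0.50, 0.50 and 0.49, and by tertile of GC content 0.54, 0.51 and 0.41. Of the promoters printed here, those of EXOC6, PCGF5 and PDLIM1 belong to members that share the shift. KAT6B does not share it. EXOC6, of the exocyst complex (chr10:92826581-92826880, plus strand), has the lowest CpG ratio among members with all 3 libraries above, with 0 CpG, and PCGF5, a Polycomb protein (chr10:91162762-91163061, plus strand), has the highest, with 55. KAT6B (chr10:74825005-74825304, plus strand, 29 CpG) and PDLIM1 (chr10:95290954-95291253, minus strand, 41 CpG) are the members with the lowest and the highest shift among those of at least 10 CPM with an entry. Each CpG is in capitals.
EXOC6: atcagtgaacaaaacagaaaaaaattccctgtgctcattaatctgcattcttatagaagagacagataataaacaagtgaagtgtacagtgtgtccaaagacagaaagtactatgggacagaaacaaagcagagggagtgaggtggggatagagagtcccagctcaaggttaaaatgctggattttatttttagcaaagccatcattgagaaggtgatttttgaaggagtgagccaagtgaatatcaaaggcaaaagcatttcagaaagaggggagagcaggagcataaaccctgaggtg
PCGF5: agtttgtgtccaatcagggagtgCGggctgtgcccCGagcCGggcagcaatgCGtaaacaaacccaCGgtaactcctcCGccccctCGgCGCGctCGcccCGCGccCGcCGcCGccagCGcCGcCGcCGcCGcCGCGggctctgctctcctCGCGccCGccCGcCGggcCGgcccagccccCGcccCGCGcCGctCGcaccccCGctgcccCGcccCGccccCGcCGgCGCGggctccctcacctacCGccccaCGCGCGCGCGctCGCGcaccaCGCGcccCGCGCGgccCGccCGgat
KAT6B: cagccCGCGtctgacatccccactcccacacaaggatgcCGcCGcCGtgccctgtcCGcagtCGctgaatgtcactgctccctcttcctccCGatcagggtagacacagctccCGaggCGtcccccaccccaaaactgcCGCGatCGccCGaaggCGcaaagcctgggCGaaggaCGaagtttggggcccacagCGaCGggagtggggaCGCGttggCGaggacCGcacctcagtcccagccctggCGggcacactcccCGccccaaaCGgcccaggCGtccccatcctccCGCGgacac
PDLIM1: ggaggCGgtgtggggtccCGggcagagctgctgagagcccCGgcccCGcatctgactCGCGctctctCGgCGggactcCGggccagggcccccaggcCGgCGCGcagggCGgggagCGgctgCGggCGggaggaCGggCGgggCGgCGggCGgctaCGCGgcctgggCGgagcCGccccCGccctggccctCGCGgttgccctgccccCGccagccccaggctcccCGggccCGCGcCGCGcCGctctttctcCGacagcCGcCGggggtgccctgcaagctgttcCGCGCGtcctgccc

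EXOC6 had 21.7, 22.9 and 22.002 CPM in WT_1, WT_2 and Het_8, against 10.3, 12.9 and 16.9 CPM in the other 7 (shift 0.75). PCGF5 had 142, 131 and 142 CPM in the 3, against 65.6, 71.7 and 77.7 CPM in the 7 (shift 0.95). EXOC6 and PCGF5 were picked among members with all 3 libraries above, so that both were apart between the sets follows from the choice. KAT6B and PDLIM1, with opposite shifts, both have promoters with many CpG. On either strand TATAAA was in 4.85% of the 227 member promoters and in 12.0% of all 27305 promoters of the table. CCAAT was in 34.4% of the member promoters and 35.7% of all, and GGGCGG in 66.5% of the member promoters and 44.6% of all. The whole table also covers genes under the level limit, so these shares compare expressed members with all genes. None of the 4 printed promoters holds TATAAA, only that of PCGF5 holds CCAAT, and GGGCGG occurs 6 times in PCGF5, 1 time in KAT6B and 7 times in PDLIM1.

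The comparison by genotype called no member. With edgeR 0 of 272 members tested passed an adjusted p of 0.05, as did 0 of 11961 genes (0.0%). At an unadjusted p under 0.05 there were 5 members (1.84%), against 4.98% of all genes. DESeq2 also called 0 members, where it called 34 of 12765 genes (0.266%), and limma-voom called 0. In 0 of 273 members did all CREBBP+/- libraries lie on one side of all CREBBP+/+ libraries, where 1.09% of the 11262 genes of the series did. Separate cultures are not stated in the labels, so the p-values reflect only how these libraries vary, which may be technical.

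The members leaned below 0 in this comparison. Their median log2 fold change, CREBBP+/- over CREBBP+/+, was -0.12, with 217 of 272 (79.8%) below 0 and 55 above. Over all genes the median was -0.01, and 52.4% lay below 0. Of the libraries with the shift, 1 is CREBBP+/- and 2 are CREBBP+/+. With membership of that set as a covariate the median of the members was 0.0016, and without WT_1, WT_2 and Het_8 it was 0.02. The members were chosen on the contrast of that set with the other libraries, so nothing is read from the lean or its loss. With 3 library clusters as the covariate, which also set Het_9 and Het_10 apart, the lean turned. The median was then 0.04, with 177 of 272 members above 0. In that fit 34.9% of members lay below 0, against 50.6% of all genes. These fits each called 0 members. At an unadjusted p under 0.05 the fit with the set of 3 as the covariate gave 11 members (4.04%, against 11.8% of all genes), and the fit without the 3 libraries gave 15 (5.51%, against 14.0% of all genes). Leaving out a single library gave medians between -0.23, without Het_8, and -0.03, without WT_1 or WT_2.

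**Figure D5:**
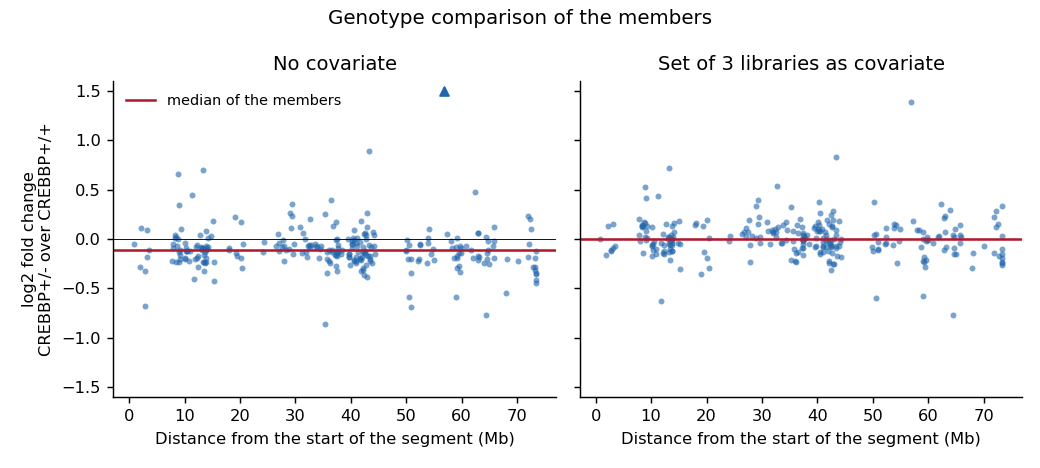
Log2 fold change, CREBBP+/- over CREBBP+/+ (y), of 272 members by distance in Mb from the start of the segment (x), from the fit with no covariate (left) and with the set of WT_1, WT_2 and Het_8 as covariate (right); the red line is the median. The median is -0.12 on the left and 0.0016 on the right. The members were chosen on the contrast of that set, so nothing is read from this difference. Drawn as a triangle at the limit is 1 member beyond 1.5.

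The 6 members with the smallest genotype p were DUSP5, RGS10, LHPP, BLNK, CFAP70 and ANXA11. DUSP5, a phosphatase of ERK kinases (ENSG00000138166, 110497907 to 110511533), had 4.89, 3.49, 2.80, 3.01 and 2.83 CPM in Het_6 to Het_10, against 5.48, 5.12, 5.75, 5.07 and 4.29 CPM in WT_1 to WT_5. The genotypes overlapped through Het_6 and WT_5. Its log2 fold change was -0.59 (SE 0.20, adjusted p = 0.963 with edgeR). The mean of BLNK was 98.3 ± 13.9 CPM in the CREBBP+/- libraries, against 117 ± 8.77 CPM in the CREBBP+/+ ones (SD, n = 5 each), a log2 fold change of -0.25 (SE 0.10, adjusted p = 0.977 with edgeR). RGS10, a regulator of G protein signalling, had a log2 fold change of -0.27, LHPP, a phosphatase, of -0.77, and ANXA11 of -0.20. CFAP70, a protein of cilia, had 0.70 at a mean of 1.16 CPM over all libraries. None of them passed the adjusted threshold, and in each of the 8 gene lists above 0 members did.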

How the data were processed

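RNA was sequenced from 10 libraries of U2932 clones, 5 CREBBP+/- and 5 CREBBP+/+ per the labels. The authors deposited a table of raw counts by Ensembl gene identifier. FastQC, STAR, featureCounts and DESeq2 stand as tools, and GRCh38 as build, in the submitters' processing notes. The sources used here give no versions, annotation or use of strand. The 2541 deposited counts of 10000 or more are all rounded to 4 significant digits. All columns were used. Of 21174 rows 20804 matched GENCODE release 44, which supplied symbols, positions and gene types.

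CPM and log2 CPM (TMM factors, prior count of 2) came from edgeR 4.0.16 in R 4.3.3. Each gene's median over the libraries was subtracted, and the shift was the mean over WT_1, WT_2 and Het_8 minus the mean over the other 7. The genotype comparison used edgeR's quasi-likelihood test with no covariate on 11961 genes (filterByExpr, minimum count 10, minimum total 15), with Benjamini-Hochberg adjustment over all of them at 0.05, two-sided. DESeq2 1.42.0 and limma-voom (limma 3.58.1) were alternatives. The fit was tested first on simulated counts with known folds and a single fixed dispersion. These counts held no difference between WT_1, WT_2 and Het_8 and the other 7 libraries. The power of the fit in the real data was not tested. Tables and figures were made with pandas 2.3.3 and matplotlib 3.10.9 in Python 3.11.15.

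The members, the gene lists and the set of 3 libraries were chosen with earlier results of these data known. Genes are named by a rule: the 3 members nearest each end, the 2 with the most counts of each window, the 6 highest and 6 lowest shifts among members of at least 10 CPM, the 6 smallest genotype p-values, and members of 8 lists of genes by function. Other genes named are said to be so. CPM are not corrected for gene length, so levels are compared within a gene only. A few listed genes and markers are not reported here by themselves but are counted in their lists.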

Additional observations from a re-analysis of the deposited data

Results flagged for a closer look

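Values of 78 groups of 5 libraries of a genotype were examined for a library that stands apart from the other 4, by the gap to its nearest neighbour relative to the range. Chance flags about 1 in 20 groups. The genes examined were partly chosen by the shift of Het_8, WT_1 and WT_2, so the count is not read against chance. In all, 8 stood apart. Of these 7 were Het_8 within CREBBP+/-, the library of that genotype that belongs to the set of 3. Its median deviation of the segment was 0.4005, with the nearest CREBBP+/- library at 0.0008356. In log2 CPM Het_8 was the highest CREBBP+/- library for DDX21 (8.971, nearest 8.159), NOLC1 (8.777, nearest 7.74), PDLIM1 (7.041, nearest 4.915), PDCD4 (7.939, nearest 5.569) and DNMBP (5.857, nearest 4.476), and the lowest for ZMIZ1 (1.831, nearest 5.287). In the CREBBP+/+ libraries, which hold 2 of the set, WT_1 stood apart for PAOX at a log2 CPM of 1.395 with the nearest library at 0.4984.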

How the results depend on the processing

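The median shift of the members lay between 0.46 and 0.52 over all alternatives (plain CPM, DESeq2 size factors, TMM without chromosomes 5, 8, 10, 13 and 16, prior counts of 0.5 and 5, level limits of 0.1 and 5 CPM, starts at 50, 58 and 70 Mb, medians over libraries, without Het_9 and Het_10, and leaving out each library). The start at 58 Mb was chosen after seeing the data. The number of members with all 3 libraries below was 7 in the main setting, 3 at a mean of 5 CPM or more and 13 without Het_9 and Het_10. The lowest window median was 0.40 in the main setting, 0.49 at a mean of 5 CPM or more, 0.32 in consecutive blocks of 25 members and 0.10 in windows of 5 Mb, where that window holds 2 members. The highest was 0.58 in the main setting and 0.80 in windows of 5 Mb, in one with 8 members. The cause was not tested. The 72 other values kept their direction and their side of the threshold or moved by less than the spread between libraries. CREBBP, which did not pass with edgeR, passed with DESeq2. Members of a few CPM are limited by depth. No paired analysis was possible because the CREBBP+/- columns carry the numbers 6 to 10 and the CREBBP+/+ columns 1 to 5, so no number is shared.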
